A study of Mus musculus with 8 samples.

Results

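Markers of vascular pericytes and smooth muscle cells, 10 genes in all, were followed through cultures of adult mouse heart muscle cells: Acta2, Tagln, Myh11, Kcnj8, Abcc9, Pdgfrb, Cspg4, Notch3, Mcam and Rgs5. They were taken by gene symbol from the deposited tables, and all 10 had a row among the 11367 genes, with 14 rows among the 21301 transcripts. The cells were ventricular cardiomyocytes isolated from adult C57BL/6 hearts, and every library was made from total RNA of such a culture. Control libraries 1 to 4 came from cells kept for 24 hours in M199, a defined culture medium, with (–)-Blebbistatin, a myosin inhibitor that stops contraction, insulin-transferrin-selenium and a lipid supplement. Conditioned libraries 1 to 4 came from cells kept for 24 hours in M199 in which CCR2+ macrophages had been cultured, with the same 3 supplements added afterward. Those macrophages were sorted from hearts of Ccr2gfp/+ mice, in which GFP marks cells that express CCR2, 4 weeks after transverse aortic constriction (TAC), a surgical pressure overload. Mice were 8 to 12 weeks old per the study's methods, which name serum for the macrophage medium and none for the control medium, so serum and macrophage products cannot be told apart. No source used here says whether separate animals stood behind the libraries of a group, so each p-value reflects variation among libraries that could be technical in part or in whole.

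Pericytes are the cells that wrap capillaries inside the basement membrane shared with the endothelium, and smooth muscle cells form the contractile layer of arteries and arterioles. Together they are called mural cells. Endothelial PDGF-B recruits them through the receptor encoded by Pdgfrb, Notch3 maintains them in contact with endothelial Notch ligands, and a K-ATP channel built from the products of Kcnj8 and Abcc9 helps set their membrane potential. Several of these genes are not restricted to mural cells: Abcc9 is also part of the K-ATP channel of cardiomyocytes, Acta2 is transcribed in embryonic heart muscle, and endothelial cells carry Mcam.

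The unit throughout is FPKM, read fragments scaled to transcript length and to the fragments mapped in the library, and fold changes are conditioned minus control on the log2(FPKM + 1) scale. Cardiomyocyte genes dominated each library: the summed FPKM of 16 cardiomyocyte markers ran from 8789 to 13498 in control and from 4988 to 11634 in conditioned libraries, against 126 to 199 and 98.1 to 164 for the 10 mural genes. Acta2 alone contributed 90.5 to 141 FPKM to the mural sum in control and 40.5 to 96.3 in conditioned libraries, so that sum mainly follows 1 gene. Markers of other heart cells were present too. The sum of 18 endothelial markers was 160 to 357 in control and 360 to 727 in conditioned libraries. For 16 fibroblast markers it was 63.4 to 157 and 143 to 172, and for 12 rows of 11 macrophage genes 29.0 to 182 and 166 to 176, while none of 10 lymphocyte markers had a row. Of 12 interferon-stimulated genes 11 were higher in conditioned medium at an adjusted p under 0.05, where 0.554% of all genes were. Conditioned 4 stood apart, with 63.0% of its FPKM in 13 mitochondrially encoded genes against 30.2% to 40.7% in the others, and a median correlation with the other libraries of 0.929 against 0.973 to 0.985. In such bulk RNA, fewer cells of a type and less RNA per cell cannot be told apart.

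The ends of Abcc9 are shown because they distinguish the mural from the cardiac use of a shared gene. Abcc9 encodes the sulfonylurea receptor SUR2, and alternative last coding exons give its protein 2 C-terminal ends. SUR2A is the end known from cardiomyocytes and SUR2B the end known from smooth muscle. The 138 coding bases of each end, stop codon included, are printed from the GENCODE vM21 annotation of GRCm38 on the minus strand, at chr6:142594005-142594142 for SUR2A and chr6:142590366-142590503 for SUR2B. Capitals mark the positions at which they differ, and 70 of 138 positions are identical.
SUR2A tail: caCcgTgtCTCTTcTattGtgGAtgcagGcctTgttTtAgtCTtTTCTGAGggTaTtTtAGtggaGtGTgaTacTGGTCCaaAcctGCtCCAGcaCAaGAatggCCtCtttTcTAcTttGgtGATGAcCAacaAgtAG
SUR2B tail: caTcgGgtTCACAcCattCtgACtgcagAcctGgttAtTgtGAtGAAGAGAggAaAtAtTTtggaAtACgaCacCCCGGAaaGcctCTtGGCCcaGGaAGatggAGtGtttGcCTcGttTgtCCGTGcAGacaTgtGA
The SUR2A tail belongs to transcripts Abcc9-201, Abcc9-202 and Abcc9-204, and the SUR2B tail to Abcc9-203. Aligned to the last 138 coding bases of Abcc8, the gene of the related receptor SUR1, the SUR2B tail is identical at 97 positions and the SUR2A tail at 71.

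Acta2, the most abundant of the 10 genes, is shown by the 250 bases before its RefSeq start site (GRCm38.p6, chr19:34255374-34255623, minus strand). The capitals are matches to the CArG box, the element bound by serum response factor (SRF) in smooth muscle contractile genes, searched on both strands with at most 1 G or C in its central run of A and T.
Acta2 promoter: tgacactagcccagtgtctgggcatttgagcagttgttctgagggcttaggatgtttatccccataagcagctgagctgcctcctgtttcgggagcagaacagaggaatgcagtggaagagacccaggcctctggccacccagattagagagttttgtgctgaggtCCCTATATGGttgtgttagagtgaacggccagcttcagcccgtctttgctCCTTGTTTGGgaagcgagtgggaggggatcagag
Its 2 matches do not overlap and begin 84 and 34 bases before the start, as CCCTATATGG and CCTTGTTTGG, each with 1 G or C in the center. Of 7 of the 10 genes with a RefSeq promoter sequence, only Acta2 had a match in this window. Tagln, Myh11 and Pdgfrb had no such sequence and were not searched, so Acta2 was the only contractile gene of the set examined. Among 32851 mouse promoters of the same length, 8.59% held at least 1 match and 0.67% at least 2, and 1.47% held a match whose center was A and T alone.

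In control medium the 10 genes spanned from well-expressed to barely detected. Acta2 led at 111 ± 23.6 FPKM (SD, n = 4), above 96.8% of all genes, and exceeded every other member in each of the 8 libraries. Next came Tagln, Abcc9, Pdgfrb, Mcam and Rgs5, with control means between 7.73 and 12.6 FPKM. The lowest were Notch3, Myh11, Kcnj8 and Cspg4, between 1.27 and 1.96 FPKM, with Cspg4 above 18.7% of genes. Along this order of control means, 3 steps held in 8 of 8 libraries, from Acta2 to Tagln, from Pdgfrb to Mcam and from Rgs5 to Notch3. The other neighbors changed places between libraries, the gene with the higher mean being higher in 3 to 7 of 8, and they are not separated beyond their spread. No member was at 0 in any library.

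**Figure D1:**
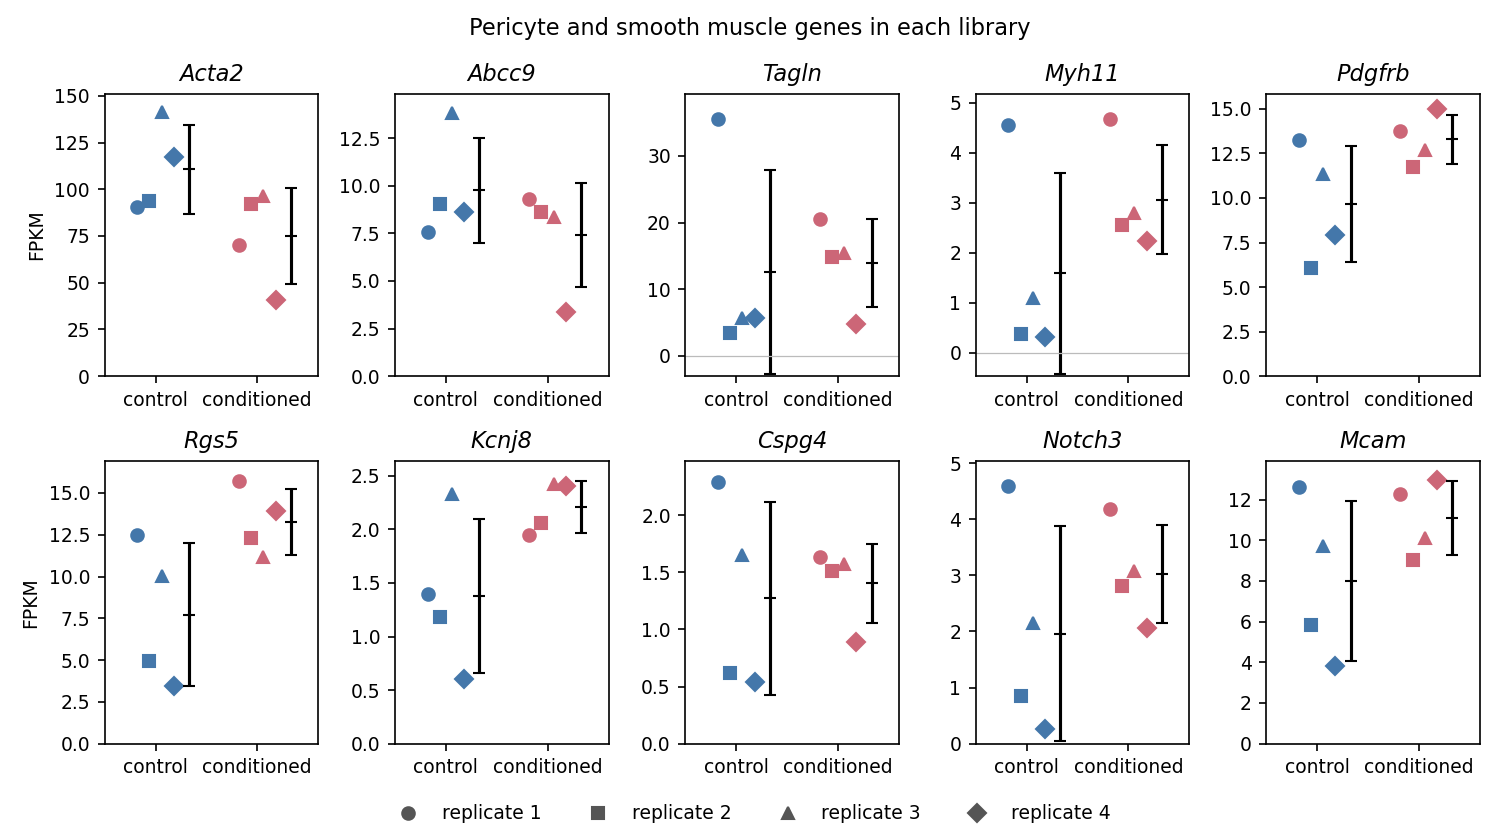
FPKM (vertical axes, 1 scale per gene) of the 10 genes in the 4 control (blue) and 4 conditioned (red) libraries, with marker shape giving the replicate and black bars the mean ± SD. Every gene's groups overlap; control 2 and 4 sit lowest for 7 genes, and Acta2 and Abcc9 are lowest in conditioned 4, at 40.5 and 3.37 FPKM.

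Among the contractile genes, Acta2 was lower and Myh11 higher in conditioned medium on average, and neither passed the adjusted test. Acta2 (smooth muscle alpha-actin, chr19:34241090-34255336, minus strand) stood at 90.5, 93.6, 141 and 117 FPKM in control 1 to 4 and at 70.4, 92.3, 96.3 and 40.5 in conditioned 1 to 4. Conditioned 4 was lowest, and conditioned 2 and 3 lay among the controls. The means were 111 ± 23.6 and 74.9 ± 25.6 FPKM (SD, n = 4 each). On the log2 scale the difference was -0.61 (SE 0.27, unadjusted p = 0.0467, adjusted p = 0.516), and -0.34 without conditioned 4.

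Myh11, the smooth muscle myosin heavy chain and the most specific contractile gene of the set (chr16:14194527-14291408, minus strand), had 4.56, 0.364, 1.10 and 0.316 FPKM in control 1 to 4 and 4.68, 2.55, 2.79 and 2.24 in conditioned 1 to 4. Control 1 reached the level of conditioned 1, whereas the other 3 controls lay below every conditioned library. The log2 difference was 0.89 (SE 0.39, unadjusted p = 0.042, adjusted p = 0.505). It rested on single libraries: without control 1 it was 1.35 with an adjusted p of 0.0347, and without control 2 and 4 together it was 0.22. Control 2 and 4 were the lowest libraries for 7 of the 10 genes, Myh11 among them. Leaving both out therefore lowers those differences by construction, here and for the genes below.

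Tagln, the actin-binding protein transgelin or SM22 (chr9:45929619-45936058, minus strand), also depended on single libraries. Its levels were 35.5, 3.45, 5.63 and 5.69 FPKM in control 1 to 4, and 20.5, 14.8, 15.5 and 4.79 in conditioned 1 to 4. Control 1 was above all others, and conditioned 4 fell among the low controls. The log2 difference of 0.54 (SE 0.59, adjusted p = 0.803) became 1.20 without control 1 (adjusted p = 0.166) and -0.21 without control 2 and 4, and with array weights, which give outlying libraries less weight, it was 1.31 and passed (adjusted p = 0.031).

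Each contractile gene was also measured as a share of its gene family within the library. Acta2 made up 4.52% ± 1.42 of the summed FPKM of the 3 muscle actins (Acta1, Acta2 and the cardiac actin Actc1) in control and 4.74% ± 0.379 in conditioned medium. Actc1 itself was 2365 ± 785 and 1432 ± 553 FPKM, so both actins were lower on average, and the difference in the Acta2 share did not pass the test (p = 0.8, exact permutation test over 70 arrangements, adjusted p = 0.933 over 7 family shares). That difference of 0.22 points was -0.17 without control 2 and -0.16 without control 4. Myh11 was 0.25% ± 0.38 and 0.6% ± 0.321 of the summed Myh6, Myh7 and Myh11 (exact permutation p = 0.2, adjusted p = 0.35). By library this share was 0.817%, 0.0333%, 0.112% and 0.0398% in control and 0.812%, 0.318%, 0.333% and 0.936% in conditioned 1 to 4. In conditioned 4, where it was highest, Myh6, the adult cardiac myosin, was at 231 FPKM against 539 to 1065 elsewhere. Tagln was 22.2% ± 15.4 and 24.0% ± 10.8 of the transgelins Tagln, Tagln2 and Tagln3 (exact permutation p = 0.943), and 45.1% in control 1 alone. The difference of 1.74 points was 9.36 without control 1 and turned below 0 without control 2, control 3, conditioned 1 or conditioned 3.

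Of 25 other contractile smooth muscle genes none passed the adjusted test, 2 were higher at an unadjusted p under 0.05 (8.78% of all genes were), none was lower, and their median log2 difference was 0.08, against 0.02 over all 11367 genes. The 2 were Tpm4, a tropomyosin of non-muscle cells (77.4 ± 32.6 and 126 ± 26.7 FPKM, adjusted p = 0.42), and Csrp1, a LIM protein (11.7 ± 5.79 and 18.6 ± 1.62 FPKM, adjusted p = 0.426). The most abundant was Tpm1, a tropomyosin shared with heart muscle, at 654 ± 71.2 and 534 ± 181 FPKM. Another 6 listed genes had no row, among them Cnn1 and Actg2, calponin and the enteric smooth muscle actin. Of 18 SRF, myocardin and TGF-beta regulators none passed, with 1 higher and 1 lower unadjusted (8.78% and 0.845% of all genes) and a median of 0.03. The lower was Srf itself, whose protein binds the CArG box shown for Acta2: 17.3, 20.7, 21.7 and 21.6 FPKM in control and 14.6, 15.7, 16.7 and 9.18 in conditioned medium. Its groups did not overlap, as for 1.46% of all genes in that direction, and the adjusted p was 0.445. The higher was Tgfb1, a ligand that raises contractile genes (5.26 ± 2.52 and 8.77 ± 2 FPKM, adjusted p = 0.445).

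The K-ATP channel genes Kcnj8 and Abcc9 differed in opposite directions on average, and neither difference passed the adjusted test. Kcnj8 encodes Kir6.1, the pore of the mural channel, and Abcc9 its regulatory subunit SUR2; they are neighbors on the minus strand of chromosome 6, at chr6:142564837-142571614 and chr6:142587862-142702315. Kcnj8 had 1.40, 1.18, 2.33 and 0.606 FPKM in control 1 to 4 and 1.95, 2.06, 2.43 and 2.41 in conditioned 1 to 4. Only control 3 reached into the conditioned range. The log2 difference was 0.48 (SE 0.20, unadjusted p = 0.0355, adjusted p = 0.48), and 0.18 without control 2 and 4.

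Abcc9 had 7.58, 9.06, 13.8 and 8.62 FPKM in control 1 to 4 and 9.29, 8.59, 8.36 and 3.37 in conditioned 1 to 4. Apart from a high control 3 and a low conditioned 4, the libraries lay between 7.58 and 9.29. Its log2 difference was -0.40 (SE 0.28, adjusted p = 0.704), and -0.11 without conditioned 4.

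Cardiomyocytes pair SUR2A with another pore, Kir6.2, the product of Kcnj11. Kcnj11 had 3.38 ± 0.502 FPKM in control and 2.62 ± 0.896 in conditioned medium (adjusted p = 0.697). Kcnj8 as a share of Kcnj8 plus Kcnj11 was 25.7%, 25.5%, 42.7% and 17.3% in control and 40.04%, 39.7%, 43.5% and 65.2% in conditioned libraries. The means were 27.8% ± 10.7 and 47.1% ± 12.2, with control 3 again inside the conditioned range (difference 19.3 points, exact permutation p = 0.0857, adjusted p = 0.3). Conditioned 4, the highest, was also the library with the lowest cardiomyocyte markers and the highest endothelial markers. Abcc8, the SUR1 gene, was below 1 FPKM in each library, at 0.827 ± 0.137 and 0.488 ± 0.188 FPKM.

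The Abcc9 transcripts split the libraries in a way that did not follow the medium. Abcc9-203, the SUR2B transcript, had 6.97, 7.72, 4.85 and 2.38 FPKM in control 1 to 4 and 8.83, 2.42, 2.14 and 2.70 in conditioned 1 to 4. The 3 SUR2A transcripts summed to 1.79, 2.32, 10.8 and 7.41 FPKM in control and to 1.36, 7.24, 7.29 and 1.13 in conditioned libraries. SUR2B thus made up 79.5% and 76.9% of Abcc9 in control 1 and 2 and 86.7% and 70.6% in conditioned 1 and 4, but 22.7% to 31.0% in the other 4 libraries. The group means were 52.9% ± 29.3 and 51.3% ± 32.3 (exact permutation p = 0.886). Abcc9-201, the main SUR2A transcript, was listed at 0 in control 1 and conditioned 4 and reached 7.87 FPKM in control 3. StringTie assigns reads to transcripts that share most of their exons, and the mapped reads behind these values are not given, so how far the split reflects that assignment was not tested.

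**Figure D2:**
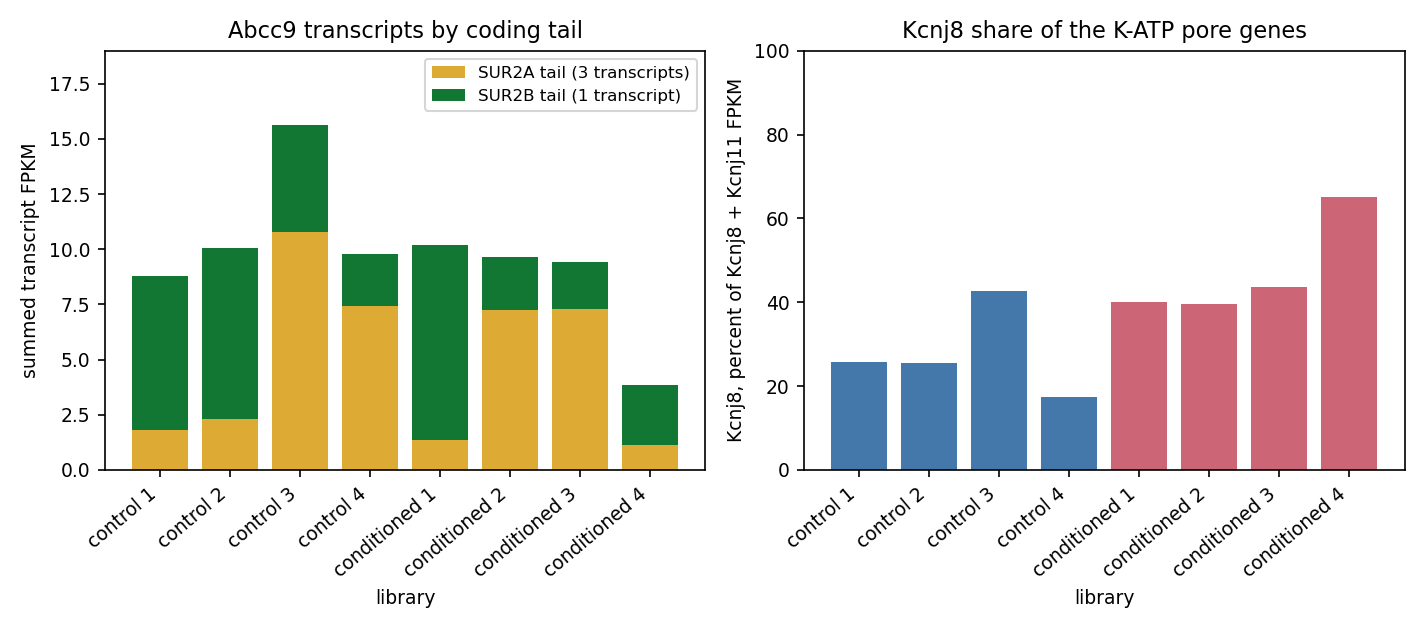
Left, summed FPKM of the Abcc9 transcripts in each library (stacked bars; yellow, the 3 transcripts with the SUR2A tail; green, Abcc9-203 with the SUR2B tail). Right, Kcnj8 as a percentage of Kcnj8 plus Kcnj11 FPKM, control in blue and conditioned in red; SUR2B dominates control 1 and 2 and conditioned 1 and 4, while the Kcnj8 share runs from 17.3% in control 4 to 65.2% in conditioned 4.

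Pdgfrb (chr18:61045150-61085061, plus strand) had 13.2, 6.06, 11.4 and 7.92 FPKM in control 1 to 4 and 13.7, 11.7, 12.7 and 15.0 in conditioned 1 to 4. Control 2 and 4 were low, while control 1 and 3 lay within or next to the conditioned range. The log2 difference was 0.47 (SE 0.22, unadjusted p = 0.0562, adjusted p = 0.544) and 0.10 without control 2 and 4. Its relative Pdgfra, the PDGF receptor of fibroblasts, differed more: 3.85 ± 2.24 FPKM in control and 9.27 ± 0.578 in conditioned medium, with no overlap (5.08% of all genes lay above in this way) and an adjusted p of 0.1. The share of Pdgfrb among both receptors was lower in conditioned medium, at 65.0%, 74.7%, 78.2% and 72.1% in control and 61.7%, 54.1%, 57.8% and 61.6% in conditioned libraries. This was the one family share whose groups did not overlap (difference -13.7 points, exact permutation p = 0.0286, the smallest this design can give, and adjusted p = 0.2). Leaving out single libraries moved the difference between -16.2 and -11.8 points. Of the ligands, Pdgfb was at 14.7 ± 5.15 and 18.8 ± 4.56 FPKM and Pdgfd, whose product binds the same receptor, at 1.52 ± 0.269 and 2.64 ± 0.956 FPKM (adjusted p = 0.445). Of the 4 listed PDGF genes other than Pdgfrb that had a row, none passed the adjusted test, and 2 were higher unadjusted (8.78% of all genes).

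Rgs5, a GTPase-activating protein for G protein subunits and a classical pericyte marker (chr1:169655501-169695813, plus strand), had the lowest unadjusted p of the 10. It stood at 12.5, 4.93, 10.03 and 3.44 FPKM in control 1 to 4 and at 15.7, 12.3, 11.1 and 13.9 in conditioned 1 to 4. Control 1 exceeded conditioned 2 and 3, and control 2 and 4 were far below. The log2 difference was 0.84 (SE 0.31, unadjusted p = 0.0201, adjusted p = 0.427), and 0.22 without control 2 and 4. Rgs5 was 42.2% ± 10.1 and 49.8% ± 2.67 of the summed FPKM of 5 related RGS genes (exact permutation p = 0.2), a difference of 7.61 points that was 3.18 without control 4, and Rgs16, Rgs3 and Rgs4 were higher on average as well.

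Notch3, the mural Notch receptor (chr17:32120820-32166880, minus strand), varied most, 17.9-fold between its highest and lowest library. Its levels were 4.58, 0.842, 2.16 and 0.256 FPKM in control 1 to 4 and 4.18, 2.81, 3.07 and 2.05 in conditioned 1 to 4. The highest and the lowest library were both controls. The log2 difference was 0.65 (SE 0.38, adjusted p = 0.627), and -0.09 without control 2 and 4. Notch3 was 14.8% ± 9.54 and 18.3% ± 3.84 of the 4 Notch receptors (exact permutation p = 0.543), a difference of 3.48 points that ranged from 0.15 without control 4 to 7.5 without control 1. Of 15 other Notch pathway genes none passed the adjusted test and 6 were higher unadjusted, where 8.78% of all genes were, with a median of 0.35. The 6 included Notch1 (2.36 ± 1.02 and 4.25 ± 0.74 FPKM, no overlap as for 5.08% of all genes, adjusted p = 0.344), Notch4 (2.6 ± 1.4 and 4.81 ± 0.775 FPKM, adjusted p = 0.416), both receptors of endothelial cells, and the target Hey1 (3.61 ± 2.02 and 6.47 ± 1.48 FPKM, adjusted p = 0.439). The most abundant of the 15, the target Hes1, was the only 1 lower on average (23.9 ± 6.54 and 19.2 ± 6.53 FPKM, adjusted p = 0.74).

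Mcam, the adhesion molecule CD146 (chr9:44134469-44142727, plus strand), had 12.6, 5.85, 9.71 and 3.82 FPKM in control 1 to 4 and 12.3, 9.02, 10.1 and 13.0 in conditioned 1 to 4. Control 1 and 3 lay in the conditioned range. The log2 difference was 0.53 (SE 0.29, adjusted p = 0.605), and -0.01 without control 2 and 4. Of its 2 transcripts, Mcam-201 carried 68.8% ± 11.9 of the gene in control and 71.4% ± 9.56 in conditioned medium (exact permutation test, adjusted p = 0.886 over both transcript shares). Cspg4, the NG2 proteoglycan of the pericyte surface (chr9:56865033-56899870, plus strand), had 2.29, 0.622, 1.65 and 0.536 FPKM in control 1 to 4 and 1.64, 1.51, 1.58 and 0.892 in conditioned 1 to 4. Control 1 and 3 were the highest libraries of all, control 2 and 4 the lowest, and the log2 difference was 0.14 (SE 0.24, adjusted p = 0.867). Its direction depended on single libraries, at -0.021 without control 4, 0.35 without control 1 and -0.31 without control 2 and 4.

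No mural gene was called between the media with all 8 libraries weighted equally. Of the 10, none was higher and none lower at an adjusted p under 0.05 with limma, where 0.554% of all genes were higher and 0% lower. Myh11 passed without control 1, and Myh11 and Tagln passed with array weights, where 882 genes in all were higher. At an unadjusted p under 0.05, 3 were higher (Rgs5, Kcnj8 and Myh11; 8.78% of all genes) and 1 was lower (Acta2; 0.845% of all genes). The count of 3 became 0 without control 2, 0 without control 4, 1 without conditioned 3 and 6 without control 1, and 0 with a per-gene F test. Acta2 was no longer past an unadjusted p of 0.05 without any single one of control 2, 3 and 4 and conditioned 1 and 4, or with the F test. For none of the 10 genes did the groups stand apart without overlap, where 5.08% of all genes lay wholly above and 1.46% wholly below. In all, 8 differences were above 0 and 2 below, where 53.9% of all genes were above, and the median was 0.50. Among the 14 transcripts none passed either way, where 0.061% of all transcripts were higher and 0.00469% lower. At an unadjusted p under 0.05, 2 of the 14 were higher (those of Rgs5 and Kcnj8; 4.37% of all transcripts) and 0 lower (1.96% of all). Kcnj8-202, the only Kcnj8 transcript with a row, was the one transcript whose groups did not overlap (of all transcripts, 3.3% lay above without overlap and 1.54% below), at 1.11 ± 0.483 and 2.21 ± 0.241 FPKM with an adjusted p of 0.736. In control 3 it had 1.46 FPKM against 2.33 for the gene, the value with which the gene's control range reached into the conditioned range.

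**Figure D3:**
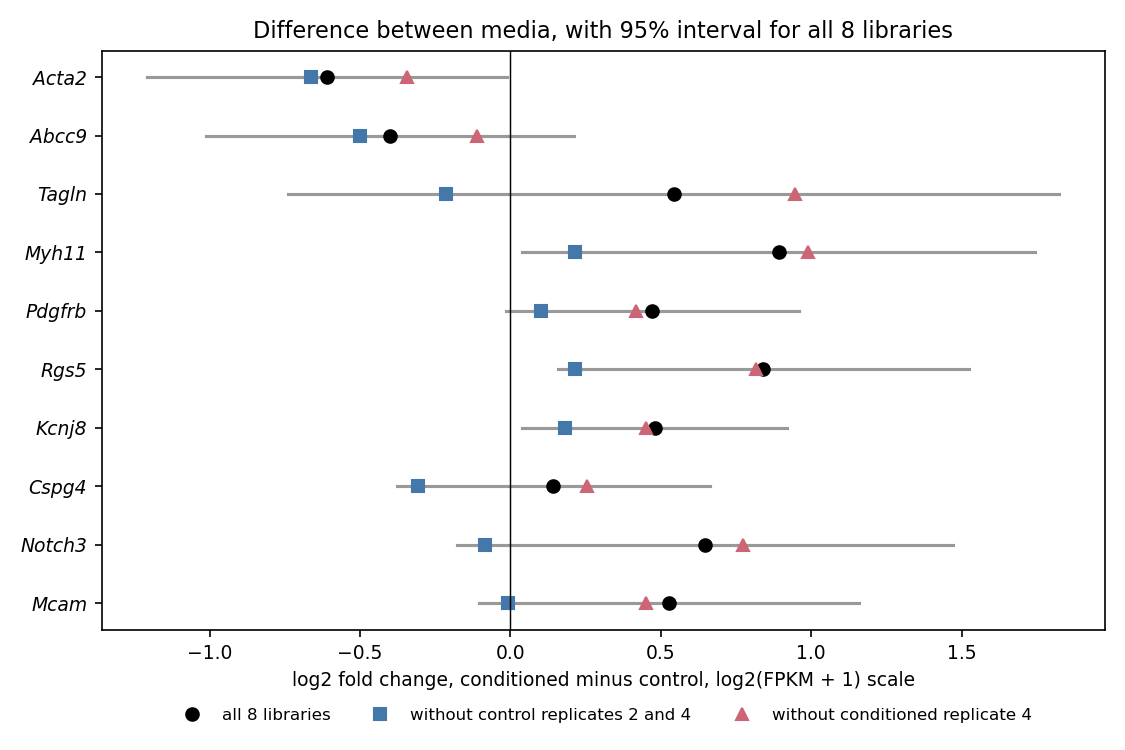
Log2 fold change of each gene, conditioned minus control on the log2(FPKM + 1) scale (horizontal axis), with all 8 libraries (black, gray line the 95% interval), without control 2 and 4 (blue) and without conditioned 4 (red). Without control 2 and 4 the 8 positive differences lie between -0.31 for Cspg4 and 0.22, while Acta2 and Abcc9 come nearer to 0 without conditioned 4, at -0.34 and -0.11. Control 2 and 4 are the lowest libraries for 7 of the genes, and conditioned 4 for Acta2 and Abcc9. Both shifts thus follow in part from which libraries were left out.

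The same libraries were low for most of the set. In 7 of the 10 genes, all but Acta2, Abcc9 and Tagln, control 2 and 4 lay below the other 6 libraries, an arrangement that 22.5% of all genes had. Of the 10, 8 genes were lowest in control 2 or 4 (42.4% of all genes), and Acta2 and Abcc9 were lowest in conditioned 4 (50.3% of all genes). The coefficient of variation was larger among control than among conditioned libraries for 8 genes (46.7% of all genes), for example 55.1% against 14.9% for Rgs5. Averaged over the 10 genes, the deviation from each gene's mean was 0.48, -0.59, 0.09 and -0.68 in control 1 to 4 and 0.42, 0.19, 0.25 and -0.16 in conditioned 1 to 4. Control 1 was therefore the highest library of all for this set.

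Markers of other heart cells were also low in control 2 and 4. The mean deviation of the 18 endothelial markers was 0.10, -0.47, -0.09 and -0.98 in control and 0.31, 0.12, 0.12 and 0.90 in conditioned libraries. Of the 18, 14 were higher at an unadjusted p under 0.05, where 8.78% of all genes were, and none passed the adjusted test. Fibroblast markers stood at 0.33, -0.74, -0.17 and -0.43 in control and between 0.19 and 0.31 in conditioned libraries. Of these 16 markers, 5 were higher unadjusted (8.78% of all genes) and 1 passed the adjusted test (0.554% of all genes). It was Dcn, at 7.08, 2.72, 4.96 and 4.58 FPKM in control and 10.1, 12.5, 12.6 and 13.5 in conditioned libraries (adjusted p = 0.0336). All its controls lay below the conditioned libraries, as for 5.08% of all genes. Macrophage markers stood at 0.27, -1.09, -0.14 and -0.33 in control and between 0.20 and 0.42 in conditioned libraries, although Ptprc, Ccr2 and Cx3cr1 had no row. None of the macrophage rows passed the adjusted test, and 2 were higher unadjusted. Control 2 and 4 were the lowest 2 libraries for mural, endothelial, fibroblast and macrophage genes alike. Cardiomyocyte markers stood at -0.17, 0.42, 0.23 and 0.34 in control 1 to 4 and at -0.08, 0.17, 0.26 and -1.18 in conditioned 1 to 4. They were highest in control 2 and 4 and lowest in conditioned 4, the library in which Acta2 and Abcc9 were lowest. With the endothelial mean added to the model as a covariate, the median over the 10 genes was 0.0036, against 0.027 over all genes. None of the 10 had an unadjusted p under 0.05. The endothelial mean was itself higher in conditioned medium on average, so its part and that of the medium cannot be told apart. The count of all genes called higher fell with this covariate as well. Without control 2 and 4 the median was -0.05, against -0.09 over all genes, and leaving out these low libraries lowers it by construction. The part of the other cells in the differences between media was not tested.

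Other pericyte genes were counted in the same way. Of 22 with a row, none passed the adjusted test, with 7 higher and 1 lower at an unadjusted p under 0.05 (8.78% and 0.845% of all genes) and a median of 0.42. The lowest p belonged to Gja4, connexin 37 (3.32 ± 2.97 and 7.41 ± 0.997 FPKM, adjusted p = 0.27), Foxc1, a transcription factor (0.977 ± 0.431 and 2.05 ± 0.55 FPKM, no overlap as for 5.08% of all genes, adjusted p = 0.284) and Steap4, a metalloreductase (1.38 ± 0.688 and 2.78 ± 0.554 FPKM, adjusted p = 0.312). The most abundant was Mfge8, at 18.8 ± 3.62 and 17.5 ± 3.18 FPKM (adjusted p = 0.888). The lower gene was Kcnk3, the potassium channel TASK-1, at 7.97 ± 1.03 and 5.38 ± 1.51 FPKM (adjusted p = 0.453). Like the cardiomyocyte markers, Kcnk3 was highest in control 2 and 4 (8.88 and 8.83 FPKM) and lowest in conditioned 4 (3.53 FPKM). Which cells carried the 22 genes was not tested. Their mean deviation was 0.29, -0.49, -0.11 and -0.54 in control 1 to 4 and 0.09 to 0.37 in the conditioned libraries, so control 1 lay inside the conditioned range.

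**Figure D4:**
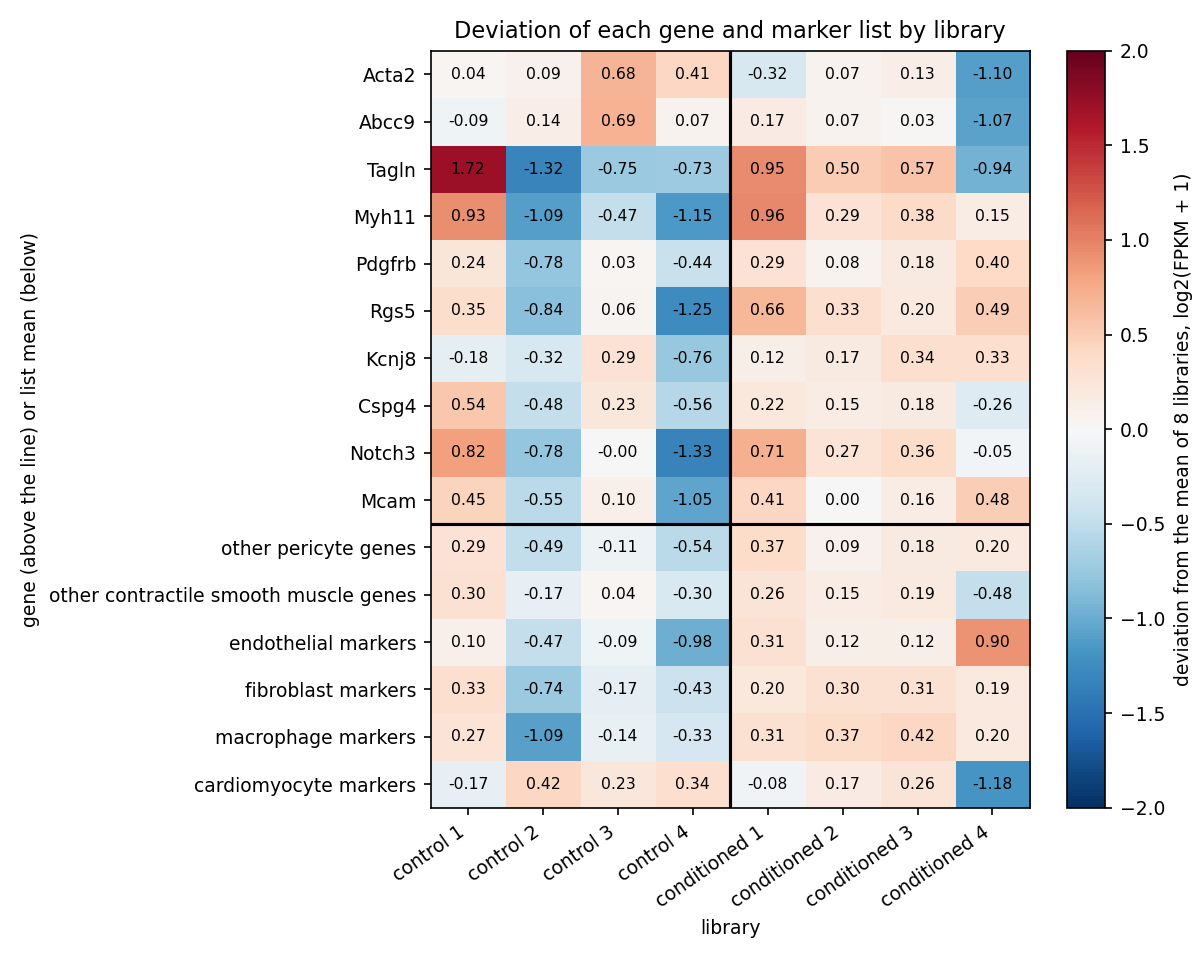
Deviation from the mean of the 8 libraries on the log2(FPKM + 1) scale (color, printed in each cell) for the 10 genes (above the line) and the means of 6 marker lists (below), by library. Control 2 and 4 are negative (blue) for the mural genes other than Acta2 and Abcc9 and for every list but the cardiomyocyte markers. Conditioned 4 is negative for Acta2, Abcc9, Tagln, Cspg4, Notch3, the other contractile smooth muscle genes and the cardiomyocyte markers.

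The likeness of patterns over the 8 libraries was measured as the mean absolute difference between 2 genes' deviations, as a description with no test. Acta2 and Abcc9 were closest to each other (0.14), and Acta2 and Tagln were farthest apart (0.99). Rgs5 and Mcam were nearest neighbors (0.16), Pdgfrb was nearest to Mcam (0.18), Notch3 to Rgs5 (0.19), Myh11 to Notch3 (0.20), and Cspg4 and Kcnj8 to Pdgfrb (0.21 and 0.24). Tagln was the most isolated, 0.40 from its nearest member, Myh11. Among 9986 other genes with a mean of at least 1 FPKM, the 5 whose pattern over the 8 libraries was most like the mean of the set were Fam114a1 (0.07), Cndp2 (0.07), Abcc1 (0.08), Arpin (0.08) and Slc43a2 (0.09). None of the 5 passed the adjusted test between media. Every member lay farther from that mean than these 5 genes, from 0.11 for Cspg4 to 0.52 for Abcc9, 0.59 for Acta2 and 0.60 for Tagln. The mean thus averages unlike patterns, and likeness to it is not likeness to each member.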

How the data were processed

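RNA of 8 cardiomyocyte cultures was sequenced from stranded libraries. Per the labels and the study's methods, the authors used cutadapt for trimming, HISAT2 for alignment to GRCm38 and StringTie for transcript abundance, and deposited FPKM per gene and per transcript. Versions of these tools, and the release of the gene annotation, were not stated. The FPKM tables held protein-coding genes with a mean of at least 0.5 in at least 1 group, with 1 emptied line each, and no further filter was applied. Whole reads could not be recovered from the FPKM, and the methods give the nominal read number of the sequencing service but not the reads mapped in each library, so the variation among libraries is the measure of precision here.

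The media were compared with limma 3.58.1 (R 4.3.3) on log2(FPKM + 1), a pseudocount of 1, with intensity-dependent variances, two-sided, and Benjamini-Hochberg adjustment over all 11367 genes or 21301 transcripts; a gene is called at an adjusted p under 0.05. A fold change on this scale understates the change of low genes. Shares within a gene or family were compared by a two-sided exact permutation test over 70 arrangements (smallest p 0.0286), adjusted over 7 family or 2 transcript shares. Sequences came from GENCODE vM21 and RefSeq tables; 7 of 10 promoters matched by symbol. The members, lists, tests and alternatives were chosen with earlier results of these data known. From each other list the most abundant gene and up to 3 with the lowest p were eligible to be named. Family members, Kcnk3, Ptprc, Ccr2, Cx3cr1, Cnn1 and Actg2 were named besides. Alternatives were another pseudocount, filter, scaling, test or weighting, a replicate block, an endothelial covariate, transcript sums and libraries left out. On simulated data with 100 changed genes per step, limma found 71 of 100 genes set to a log2 change of 1, 94 of 100 set to 2, and 5 that were not changed. For transcripts it found 14 and 54 of 100. Noise was drawn independently for each gene and library, and only genes or transcripts with a mean log2(FPKM + 1) above 1 were changed. Shifts shared by many genes of a library, as seen here, were not simulated, so these rates need not hold for these data. Replicate numbers did not pair the libraries by the labels, and the deviations of libraries with the same number correlated above 0.1 in 1 of 4 cases.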

Additional observations from a re-analysis of the deposited data

Results flagged for a closer look

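Of 52 groups of 4 values, 6 held a library outside Dixon's 95% limit, where chance gives about 1 in 20. The groups are not independent, because shares and transcripts draw on the same genes, so the count is not a test for an excess. Abcc9 was at 3.37 FPKM in conditioned 4 against 8.36 to 9.29 in the other conditioned libraries. Tagln was at 35.5 FPKM in control 1 against 3.45 to 5.69 in the other controls, and its share of the transgelins was 45.1% there against 12.6% to 17.8%. Myh11 made up 0.817% of the myosin heavy chains in control 1 against 0.0333% to 0.112% in the other controls. Kcnj8 made up 65.2% of the K-ATP pore genes in conditioned 4 against 39.7% to 43.5%. Abcc9-203, the SUR2B transcript, was at 8.83 FPKM in conditioned 1 against 2.14 to 2.70 in the other conditioned libraries.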

How the results depend on the processing

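The count of 0 member genes lower and of 0 member transcripts held under every alternative tried. The count of 0 member genes higher became 2 with array weights (Myh11 at 1.06, adjusted p = 0.0312, and Tagln at 1.31, adjusted p = 0.031) and ranged from 0 to 1 with single libraries left out, the 1 being Myh11 without control 1. For all genes, 63 higher became 0 with the F test, 882 with array weights, 1 with the endothelial covariate and 2 without control 2 and 4, and 31 to 110 with single libraries left out. For all genes lower, 0 became 1 with a pseudocount of 0.1, 1 with median-of-ratios factors, 2 with quantile normalization, 51 with array weights, 1 without control 2 and 4 and 1 with transcript sums, and 0 to 2 with single libraries left out. At an unadjusted p, the 3 members higher became 1 with quantile normalization, 5 with array weights, and 0 with the F test, with the covariate and without control 2 and 4 (0 to 6 with single libraries left out). The 1 member lower became 0 with equal totals, the F test, the covariate, transcript sums and without control 2 and 4 (0 to 1 with single libraries left out). With the replicate block 5 members were higher unadjusted and no member passed the adjusted test; the numbers are not known to pair the libraries. The median of 0.50 became 0.0036 with the covariate and -0.048 without control 2 and 4, and ranged from 0.31 to 0.70 with single libraries left out.

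Acta2 and Abcc9 stayed below 0, and Rgs5, Kcnj8, Pdgfrb and Myh11 above 0, in each alternative. Others changed sign. Without control 2 and 4, Tagln was -0.21, Cspg4 -0.31, Notch3 -0.086, Mcam -0.0095, Abcc9-204 -0.36 and Mcam-202 -0.29. With the covariate, Cspg4 was -0.18, Notch3 -0.068, Mcam -0.24, Abcc9-201 1.27, Abcc9-204 -0.15, Mcam-201 -0.27 and Mcam-202 -0.15. Cspg4 was -0.053 with the F test and -0.021 to 0.35 with single libraries left out, and Abcc9-201 was -0.97 to 0.14. Leaving out single libraries, the difference in share ranged from -0.17 to 0.80 points for Acta2, -1.46 to 9.36 for Tagln, -13.5 to 7.84 for Abcc9-203 and -0.995 to 8.36 for Mcam-201. The causes were not tested. The median of all genes, 0.02, was 0.10 with equal totals over nuclear genes and 0.12 with array weights or without conditioned 4. The stricter filter of a mean of 2 FPKM gave no value for Kcnj8 and Cspg4. Mapped reads per library are not given, so the counting error of low genes could not be computed.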
